A study of Homo sapiens with 18 samples.

Results

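Cultures of A549 cells held for 72 h in the exposure chamber at 0.5 ppm and cultures held there at 0.1 ppm formaldehyde were compared directly. A549 is a line derived from a human lung carcinoma and is used as a model of alveolar type II cells. The cells were grown on membranes at the air-liquid interface, so that their upper surface met the humidified gas. All 3 arrays titled as 0.5 ppm and all 3 titled as 0.1 ppm were taken, which gives 6 of the 18 arrays of the series. Each array held RNA of a different experiment, and the replicate numbers were not used to pair arrays. Every experiment also had a culture in a reference chamber without formaldehyde, and the 6 reference arrays of these experiments served as the background. The 3 exposure arrays at 0 ppm were set beside the result. Because an experiment had 1 concentration only, concentration and experiment cannot be told apart within the exposure chamber. The p-values measure the spread between these experiments in 1 cell line.

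Formaldehyde is a reactive gas that dissolves in the fluid over the epithelium and crosslinks proteins and DNA. Inside cells it joins with glutathione, is oxidised by ADH5, and the product is split by ESD, while ALDH2 oxidises free aldehydes. The formate formed can enter folate one-carbon metabolism. Higher doses are known to call on stress pathways such as NRF2, heat shock, p53 and crosslink repair.

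The values were array signals on a linear scale (MAS5 signals, each array scaled to a trimmed mean of 500), and differences are given as log2 of 0.5 ppm over 0.1 ppm. Signals also depend on the probe sequences, so a level is only a rough guide between probesets, and differences were taken between arrays. The median signal ranged from 26.7 to 31.3 over the 6 exposure arrays, and the 3' to 5' difference of ACTB, a measure of RNA integrity, was 5.24, 5.29 and 6.57 on the log2 scale at 0.5 ppm and 5.55, 4.79 and 6.75 at 0.1 ppm. The highest value of all arrays, 8.67, belonged to a culture without formaldehyde, replicate 1 of the 0.1 ppm experiments. The epithelial genes KRT8, KRT18, KRT7 and CDH1 and the A549 genes ALDH1A1, AKR1C1 and AKR1B10 had mean log2 signals of 11.1 to 14.6. NKX2-1, SFTPB and SFTPC, which type II cells express in the lung, lay near the median probeset at 4.94, 5.93 and 5.29. All 11 markers of A549 and lung epithelium, which also include EPCAM, were above the median signal. Of 15 markers of other cells 8 were at or below the median signal, among them CD3E and PTPRC at -0.44 and 1.77, and 7 above it, the highest being SNAP25, a neuronal gene, at 12.4.

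No transcript separated the concentrations after correction for multiple testing. Of 54675 probesets, 2087 had an unadjusted p-value under 0.05, the threshold of the study, which is 3.82% of those tested, with 1065 higher (1.95%) and 1022 lower (1.87%) at 0.5 ppm. With Benjamini-Hochberg adjustment in limma 0 passed, and the lowest adjusted p-value was 0.245. Most of the 2087 were dim: their median signal was 3.80 against 27.5 for all probesets. Among the 27337 probesets above the median signal 170 passed, which is 0.622%, with 75 higher (0.274%) and 95 lower (0.348%). When the 27337 were fitted alone, so that their own spread set the error, 516 passed, with 232 higher and 284 lower, and again 0 after adjustment in limma. Of the same probesets 714 passed with 32 added before the logarithm and 316 when the spread could vary with the signal (a trend in eBayes), so the number of brighter calls depends on how the spread is estimated. Among the 27338 at or below it 1917 passed, or 7.01%. The median standard deviation between replicates was 0.32 on the log2 scale above the median signal and 1.19 below it. With 3 arrays a group, the 95% interval of a difference had a median half-width of 0.75 above the median signal, so differences under about this size could not be resolved for most transcripts.

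**Figure D1:**
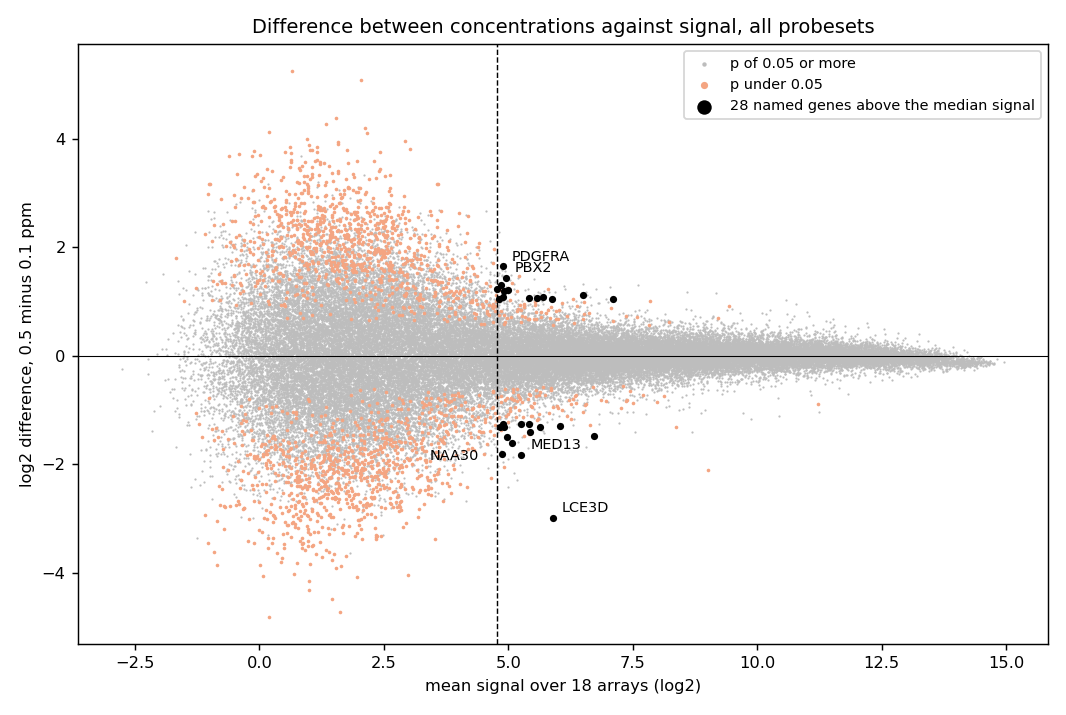
Log2 difference between 0.5 and 0.1 ppm (vertical axis) against the mean log2 signal over 18 arrays (horizontal axis), 1 point per probeset. Orange points had a p-value under 0.05, black points are the 28 genes named above the median signal, and the dashed line is the median signal of 4.78; 170 called probesets lie to its right and 1917 to its left.

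The genes described first were those with the largest differences among probesets that name 1 gene, lie above the median signal, had a p-value under 0.05 and did not overlap between the groups. Above the median signal 1324 probesets did not overlap, which is 4.84%, and 166 of these also passed the threshold, which is 0.607%. The 14 highest ranged from 2.06-fold (FAM161B) to 3.15-fold (PDGFRA) above the 0.1 ppm level, with adjusted p-values of at least 0.623. With 32 added before the logarithm, which damps dim signals, they ranged from 1.37-fold to 1.79-fold, and the 14 lowest from 1.45-fold to 2.42-fold below it. The mean log2 signals of these 14 ran from 4.78 to 7.10, close to the median probeset. Since the arrays chose these genes, their differences are a description. Intervals printed with genes below are 95% intervals of the log2 difference, unadjusted for the number of probesets, and some genes are given without one. With 1 array left out, 17 to 23 of the 28 named genes of both directions still passed the threshold, with 17 left without replicate 1 or replicate 3 at 0.5 ppm.

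PDGFRA, the alpha receptor for platelet-derived growth factor, had signals of 46.7, 55.5 and 44.8 at 0.5 ppm and 34.2, 13.8 and 7.87 at 0.1 ppm. The 0.5 ppm arrays were tight and the 0.1 ppm arrays spread over a wide range below them, with a log2 difference of 1.66 (0.26 to 3.05). PBX2, a homeodomain partner of HOX proteins, had signals of 31.2, 36.2 and 49.4 against 22.5, 9.18 and 13.5, a difference of 1.44 (0.42 to 2.46). CASP1, the protease of the inflammasome, had 84.7, 61.5 and 54.2 against 27.6, 21.0 and 51.0, a difference of 1.08 (0.06 to 2.10). The lowest CASP1 signal at 0.5 ppm and the highest at 0.1 ppm almost touched. LDLRAD4, an inhibitor of TGF-beta signalling, had 192, 126 and 126 against 88.9, 47.1 and 70.2, a difference of 1.12 (0.26 to 1.99). BRSK1, a kinase of the AMPK family, and CASZ1, a zinc finger transcription factor, differed by 1.08 and 1.09.

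GSTM3, a glutathione transferase of the mu class, had the lowest adjusted p-value of the 14, at 0.623 in limma. Its signals were 46.8, 49.4 and 42.3 at 0.5 ppm and 21.0, 20.5 and 14.8 at 0.1 ppm, so that both groups were narrow and well apart, with a difference of 1.31 (standard error 0.26). A second GSTM3 probeset of much higher signal, with a mean log2 of 9.16, differed by only 0.07. TRAPPC13, a subunit of a trafficking complex, differed by 1.05 (0.36 to 1.75), PCM1, a protein of centriolar satellites, by 1.21 (0.02 to 2.41) and EPB41L1, a protein that links membranes to the actin skeleton, by 1.05 (0.15 to 1.94). SLITRK5 and SEZ6L2, membrane proteins known from neurons, differed by 1.24 and 1.20. The antisense transcript EXTL3-AS1 had 53.5, 52.2 and 38.6 against 21.6, 22.8 and 23.5, a difference of 1.07 (0.46 to 1.68). The 3 arrays at 0.1 ppm nearly coincided.

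**Figure D2:**
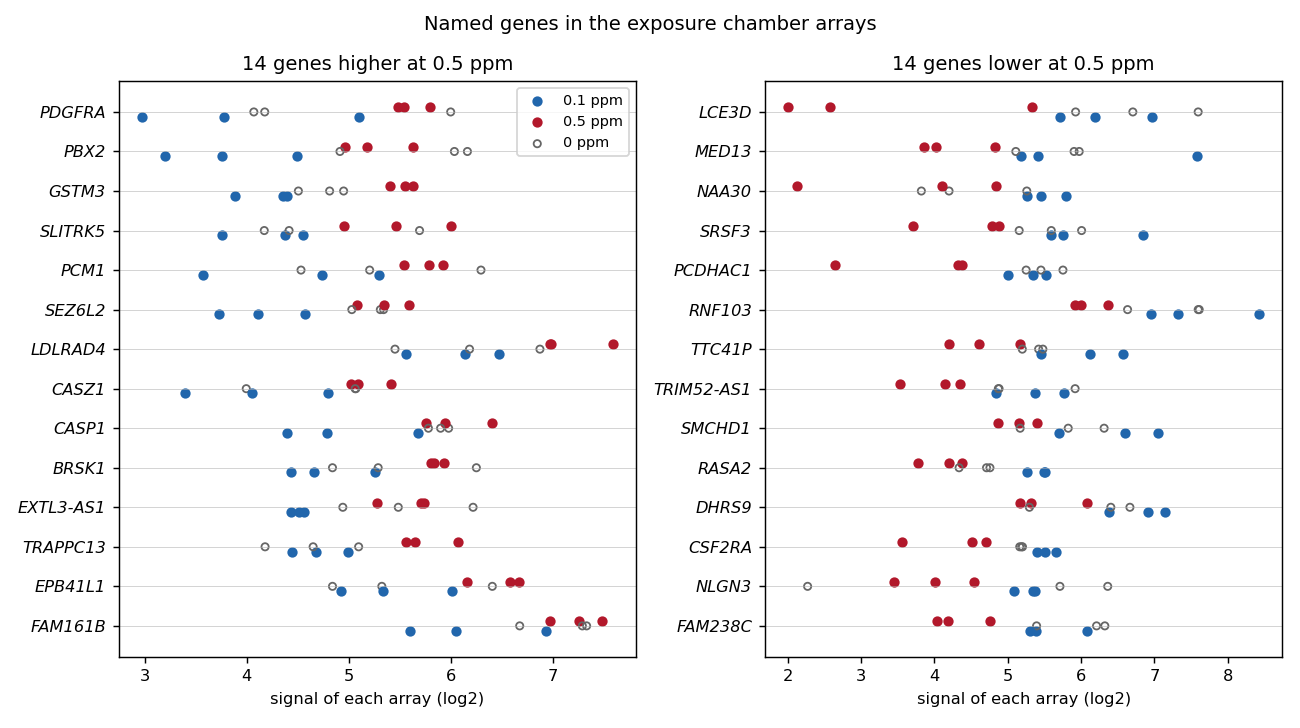
Log2 signal of each exposure chamber array (horizontal axis) for the 14 genes with the largest differences upward (left) and downward (right) at 0.5 ppm. Filled points are the 3 arrays at 0.5 ppm (red) and at 0.1 ppm (blue), which do not overlap because the genes were chosen so, and open circles are the 3 arrays at 0 ppm, which chose no gene and often lie between the others.

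The largest difference above the median signal belonged to a gene lower at 0.5 ppm. It was LCE3D, which belongs to the late cornified envelope proteins of the skin and had signals of 4.02, 5.95 and 40.2 at 0.5 ppm and 72.7, 52.5 and 125 at 0.1 ppm. Replicates 1 and 2 at 0.5 ppm were near the floor of the array while replicate 3 was close to the 0.1 ppm arrays, with a log2 difference of -2.99 (-5.30 to -0.67). The probeset is of the kind that can pick up related transcripts of a gene family, as are those of PCM1, SEZ6L2, LDLRAD4, CASP1, NAA30, DHRS9, CSF2RA and FAM238C, so their values are uncertain in that respect.

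Other genes lower at 0.5 ppm were read by probesets near the median signal. MED13, a subunit of the Mediator complex, had signals of 14.4, 28.3 and 16.3 against 36.4, 192 and 42.6, a difference of -1.83 (-3.61 to -0.05). SRSF3, a splicing factor, had 29.4, 27.6 and 13.1 against 48.2, 114 and 53.9, a difference of -1.60 (-2.84 to -0.36). SMCHD1, a chromatin protein of X inactivation, had 29.1, 42.3 and 35.6 against 51.8, 132 and 97.1, a difference of -1.31 (-2.33 to -0.28). In all of these, replicate 2 at 0.1 ppm was the highest array. NAA30, the catalytic subunit of an N-terminal acetyltransferase, had 4.37, 28.5 and 17.2 against 38.6, 55.4 and 43.8, a difference of -1.81 (-3.60 to -0.03).

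RASA2, which turns off RAS by raising its GTPase activity, had the lowest adjusted p-value of these 14, at 0.668 in limma. Its signals were 20.7, 18.4 and 13.7 at 0.5 ppm and 45.0, 38.5 and 45.3 at 0.1 ppm, a difference of -1.30 (-1.96 to -0.65). CSF2RA, the alpha subunit of the receptor for GM-CSF, had 11.8, 22.8 and 26.1 against 45.5, 42.4 and 50.6, a difference of -1.27 (-2.18 to -0.35). Its 0.1 ppm arrays were narrow and its 0.5 ppm arrays spread below them. DHRS9, a dehydrogenase that acts on retinol, differed by -1.29 (-2.20 to -0.38), and here the brighter probeset of the gene also passed, with a difference of -0.83. PCDHAC1, a protocadherin, and NLGN3, a synaptic adhesion protein, differed by -1.51 and -1.27. RNF103, a ubiquitin ligase of the endoplasmic reticulum, had 82.5, 64.0 and 60.2 against 161, 344 and 124, a difference of -1.48 (-2.57 to -0.38).

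For most of these genes a brighter probeset of the same gene did not show the difference. Of the 14 higher, 8 had a brighter probeset, 0 of which passed the threshold, with differences of -0.06 to 0.40. Of the 14 lower, 9 had one and only that of DHRS9 passed, with differences of -0.83 to 0.33. The brightest probesets of MED13, SRSF3 and RASA2, with mean log2 signals of 13.2, 13.5 and 11.6, differed by 0.07, -0.14 and -0.07, and that of PBX2 by -0.02. The dim and the bright probesets of a gene can read different transcript forms, and which forms they read was not tested.

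At a mean log2 signal over 8, 7 of 14787 probesets passed, and these were picked after their values had been seen. The number was 42 when only probesets above the median signal were fitted, 117 with the trend and 182 with 32 added, with 0 after adjustment in limma in each. MXD1, which binds MAX in place of MYC, was the brightest, with signals of 1783, 2488 and 1868 at 0.5 ppm and 2790, 4928 and 3889 at 0.1 ppm, 1.86-fold lower (log2 difference -0.90, -1.68 to -0.12). Its reference chambers had 1679, 3236 and 2309 in the 0.5 ppm experiments and 780, 5137 and 1993 in the 0.1 ppm experiments, so that the same range was covered without formaldehyde. TNFSF10, the death ligand TRAIL, had 1277, 682 and 701 against 532, 341 and 504, 1.88-fold higher (log2 difference 0.91, 0.0067 to 1.82). Its brighter probeset differed by 0.37. DOP1A, which acts in membrane traffic, had 708, 735 and 694 against 493, 368 and 467, 1.62-fold higher (log2 difference 0.70, 0.11 to 1.28). The brightest probeset of DOP1A differed by 0.22. ANKRD40 had 223, 204 and 193 against 266, 399 and 385, 1.67-fold lower (log2 difference -0.74, -1.40 to -0.08). The brightest probeset of ANKRD40 differed by -0.19. The antisense transcript BABAM2-AS1 had 185, 338 and 190 against 331, 1039 and 525, a difference of -1.31, and its groups overlapped. The others have no gene name in the tables used, and differed by -2.10 and 0.63. Of the 12 brightest named probesets that passed without overlap, which include MXD1, TNFSF10, DOP1A and ANKRD40, 0 passed without replicate 1 at 0.5 ppm or without replicate 2 at 0.1 ppm.

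AMACR, a racemase of branched-chain fatty acid oxidation, had signals of 295, 257 and 281 at 0.5 ppm and 211, 115 and 107 at 0.1 ppm. This was 2.02-fold higher (log2 difference 1.01, 0.18 to 1.85). LGR6, a receptor for R-spondins, had 89.8, 102 and 167 against 195, 187 and 237, 1.78-fold lower (log2 difference -0.83, -1.63 to -0.04). Its signals at 0 ppm were 102, 120 and 123. Without formaldehyde LGR6 differed by -0.66 between the same experiments. TNFRSF10B, a receptor for TRAIL, had 121, 180 and 191 against 234, 367 and 285, 1.81-fold lower (log2 difference -0.85, -1.63 to -0.08). But its brightest probeset, at a mean log2 signal of 13.2, differed by -0.05. The probesets of TNFSF10, DOP1A, BABAM2-AS1 and TNFRSF10B can pick up related transcripts. AMACR, LGR6 and TNFRSF10B too were picked for their signal after their values had been seen, belong to the same 12, and did not pass without replicate 1 at 0.5 ppm or without replicate 2 at 0.1 ppm.

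The 0 ppm cultures of the exposure chamber took no part in this choice and mostly lay between the concentrations. For the 14 genes higher at 0.5 ppm the mean at 0 ppm was between the other means in 12, and nearer to 0.5 ppm in 8 and to 0.1 ppm in 6. For the 14 lower it was between in 11, nearer to 0.1 ppm in 10 and to 0.5 ppm in 4. A level ordered by concentration from 0 over 0.1 to 0.5 ppm was found for 1 of the 14 higher and 3 of the 14 lower. Over the 170 called probesets above the median signal it was found for 4 of the 75 higher and 13 of the 95 lower. Choosing transcripts by the contrast of 0.5 with 0.1 ppm by itself tends to place another group between the chosen means, so nothing is read from the counts of means in between.

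The same contrast was run in the reference chambers, where no culture met formaldehyde. There 2009 probesets passed between the experiments of 0.5 and of 0.1 ppm, which is 3.67% of those tested, with 937 higher and 1072 lower. Without replicate 1 of the 0.1 ppm experiments, the array of low ACTB 5' signal, 1362 were higher and 1009 lower. Above the median signal 74 passed, or 0.271%, against the 170 of the exposure chamber. After adjustment in limma 0 passed, with a lowest adjusted p-value of 0.568. The difference of the chamber differences, fitted over the 12 arrays, without pairing the chambers of an experiment, passed for 1710 probesets, which is 3.13%, and for 116 above the median signal, which is 0.424%. With the experiment as a block 2164 passed. After adjustment 0 passed in limma, and the lowest adjusted p-value was 0.208. Whether the 170 and the 74 differ as counts was not tested.

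Gene by gene, none of the 28 named genes passed the threshold in the reference chambers. Of the 14 higher at 0.5 ppm 10 had the opposite sign there, and of the 14 lower 12 had the same sign. Over all called probesets above the median signal the signs were more even, with 38 the same and 37 opposite among the 75 higher, and 58 the same and 37 opposite among the 95 lower. All these signs take in replicate 1 of the 0.1 ppm experiments, the array of low ACTB 5' signal, and signs without it are not given. Among the 0.1 ppm reference arrays it was the highest for PBX2, CASP1 and FAM161B and the lowest for MED13, SRSF3, RNF103 and SMCHD1. PBX2 differed by -1.12 between the reference chambers and BRSK1 by -0.92, against 1.44 and 1.08 in the exposure chamber. For PBX2 the 0.1 ppm reference signals were 74.3 in replicate 1, 28.4 in replicate 2 and 35.9 in replicate 3. TRAPPC13 differed by 1.09 (standard error 0.74) between the reference chambers, against 1.05 (standard error 0.28) in the exposure chamber. Its reference log2 signals were 6.25, 4.48 and 4.39 in the 0.5 ppm experiments and 2.78, 4.64 and 4.41 in the 0.1 ppm experiments. Its reference difference thus rests on replicate 1 of both, and the 2.78 belongs to the array of low ACTB 5' signal. LCE3D, with reference signals of 70.6, 43.2 and 115 in the 0.5 ppm experiments and 26.0, 30.8 and 146 in the 0.1 ppm experiments, differed by 0.53 (standard error 0.77). No reference chamber array of these experiments was as low as replicates 1 and 2 at 0.5 ppm.

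**Figure D3:**
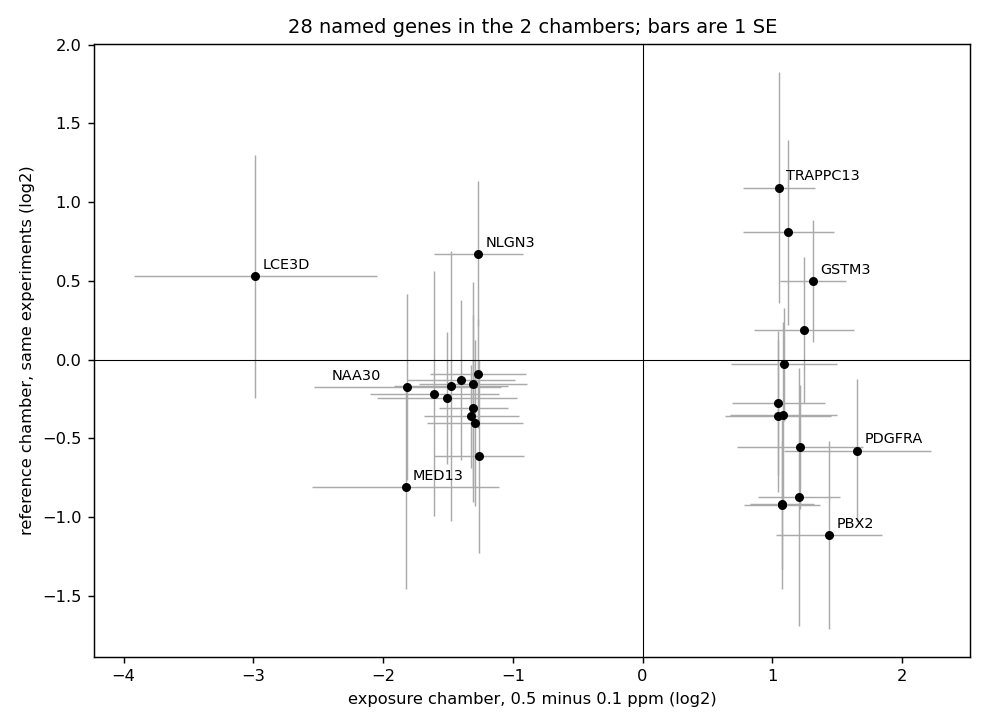
Log2 difference between the reference chambers of the 0.5 and 0.1 ppm experiments (vertical axis) against that between the exposure chambers (horizontal axis) for the 28 named genes, with bars of 1 standard error. The empty band around 0 on the horizontal axis comes from the choice of genes; on the vertical axis the points run from -1.12 to 1.09.

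The 0.1 ppm array that was the extreme varied among these genes. Replicate 2 at 0.1 ppm was the highest of the 6 exposure arrays for 7 of the 14 genes lower at 0.5 ppm. For 5 of these the reference array of the same replicate number, taken as the same experiment, was the highest of the 6 reference arrays. For RNF103 the exposure array read 344 and the reference array 378, and for MED13 they read 192 and 118. For the other genes lower at 0.5 ppm, LCE3D, TTC41P, RASA2, DHRS9, CSF2RA, NLGN3 and FAM238C, replicate 3 at 0.1 ppm was the highest exposure array. Among all 95 probesets called lower above the median signal, replicate 2 was the highest for 48, and for 29 of them the reference array was highest as well. Of the 14 genes higher at 0.5 ppm replicate 2 was the lowest array for 7, and for 2 of these the reference array was also the lowest. Among all 75 called higher it was the lowest for 36, with the reference array lowest for 8. Over all 27337 probesets above the median signal, replicate 2 was the highest array in 20.8% and the lowest in 20.2%, and the reference array was also the extreme in 43.6% and 40.3% of these. A call as higher or lower itself needs the 0.1 ppm arrays on 1 side, and without overlap 1 of these 3 arrays is always the extreme. The part of the replicate 2 experiment in the result was not tested beyond leaving out its exposure array. Without it, 19 of the 28 named genes still passed the threshold, and all kept their sign. Without replicate 3 at 0.1 ppm 18 passed, and without replicate 1 at 0.1 ppm 23.

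Over 32 lists with 692 measured genes, each read by its brightest probeset, 4 genes passed the threshold, which is 0.578%, against 2.93% of all 19775 genes, and 1 of the 598 above the median signal, against 0.395% of all such genes. The median log2 difference over all genes was 0.0092. The sign of a median was often not stable: it turned in 20 of the 32 lists when some 1 exposure array was left out, and in 8 without replicate 2 at 0.1 ppm. The 4 were MT1M, CXCL10, PCDHB3 and ADAM33, of which only ADAM33 lay above the median signal. Under the other settings and with 1 array left out, 3 to 14 of the 692 passed, the most without replicate 3 at 0.5 ppm.

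Enzymes that clear formaldehyde had high signals that did not separate by concentration. ADH5 had signals of 6800, 6713 and 8885 at 0.5 ppm and 7189, 6013 and 8244 at 0.1 ppm, with a difference of 0.06 and a 95% interval of -0.58 to 0.71. ESD had 12250, 11705 and 15617 against 13812, 11126 and 14875, with -0.01 (-0.65 to 0.63), and ALDH2 differed by 0.01 (-0.57 to 0.58). The groups overlapped for ADH5 and ESD, whose intervals take in changes of either sign. Of the 14 genes of aldehyde oxidation 9 were above 0 and 5 below, 0 passed, and the median was 0.07, which turned to -0.04 with 4 above and 10 below 0 without replicate 2 at 0.1 ppm. For the 15 measured folate one-carbon enzymes the median was -0.09 with 0 past the threshold, and SHMT2, the mitochondrial serine hydroxymethyltransferase, differed by -0.10 (-0.80 to 0.60).

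Antioxidant and stress genes likewise did not pass the threshold, apart from 1 dim metallothionein. Of 26 NRF2 targets 0 passed, with a median of -0.09. NQO1, the quinone reductase, had 18731, 20379 and 31365 at 0.5 ppm and 21324, 18040 and 32096 at 0.1 ppm, a difference of -0.01 (-0.89 to 0.86). HMOX1, which degrades haem, had 221, 350 and 177 against 326, 221 and 254, a difference of -0.14 (-1.01 to 0.72). Of 8 metallothioneins, which bind metals, MT1M passed at signals of 0.415 to 5.08 only, while MT2A and MT1X, at mean log2 signals of 12.9 and 11.9, differed by -0.05 and -0.09. Heat shock proteins (15 genes, median -0.08), genes of the unfolded protein response (24, -0.05), p53 targets (18, 0.09), the BCL2 family (15, 0.02) and genes of crosslink repair (23, -0.09) had 0 members past the threshold. CDKN1A, the cell cycle inhibitor induced by p53, differed by 0.13 (-0.53 to 0.79).

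Inflammatory and barrier genes gave a similar picture. Of 24 epithelial chemokines and interleukins CXCL10 passed, with signals of 0.871, 1.72 and 0.894 against 3.26, 3.81 and 5.88, all below the median probeset. CXCL8, the main neutrophil attractant, had 1443, 1738 and 1423 against 1752, 1731 and 1459, a difference of -0.10 (-0.68 to 0.48). The interferon-induced genes (29, median 0.09), mucins (22, -0.08), surfactant genes (16, -0.04), lineage factors (20, 0.03), tight junctions (16, 0.10), keratins and mesenchymal genes (17, 0.0014) and ion and water transport (17, -0.11) had 0 members past the threshold. Of 33 cadherins 24 were above 0, with a median of 0.20, and PCDHB3, a protocadherin, passed with 83.3, 31.4 and 21.5 against 9.96, 10.9 and 22. Of 22 metalloproteases and inhibitors (median -0.02) ADAM33, a membrane metalloprotease, passed with 11.7, 8.36 and 17.9 against 17.2, 40.7 and 43.4. Collagens, laminins and integrins (23, -0.08), the EGFR family (17, -0.16) and TRP channels (13, -0.10) had 0. TRPA1, the irritant sensor, differed by -0.10 (-0.74 to 0.54).

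Metabolic and housekeeping lists lay slightly below 0. Sterol and fatty acid synthesis (25 genes, median -0.12), phospholipid and triglyceride synthesis (22, -0.05), glycolysis and hypoxia (27, -0.09), the respiratory chain (28, -0.07) and the proteasome (28, -0.08) had 0 members past the threshold. All 34 ribosomal proteins were below 0, with a median of -0.12, and under quantile normalization the median was 0.0029, so that this direction depends on the scaling. Without replicate 3 at 0.1 ppm it was 0.09.

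**Figure D4:**
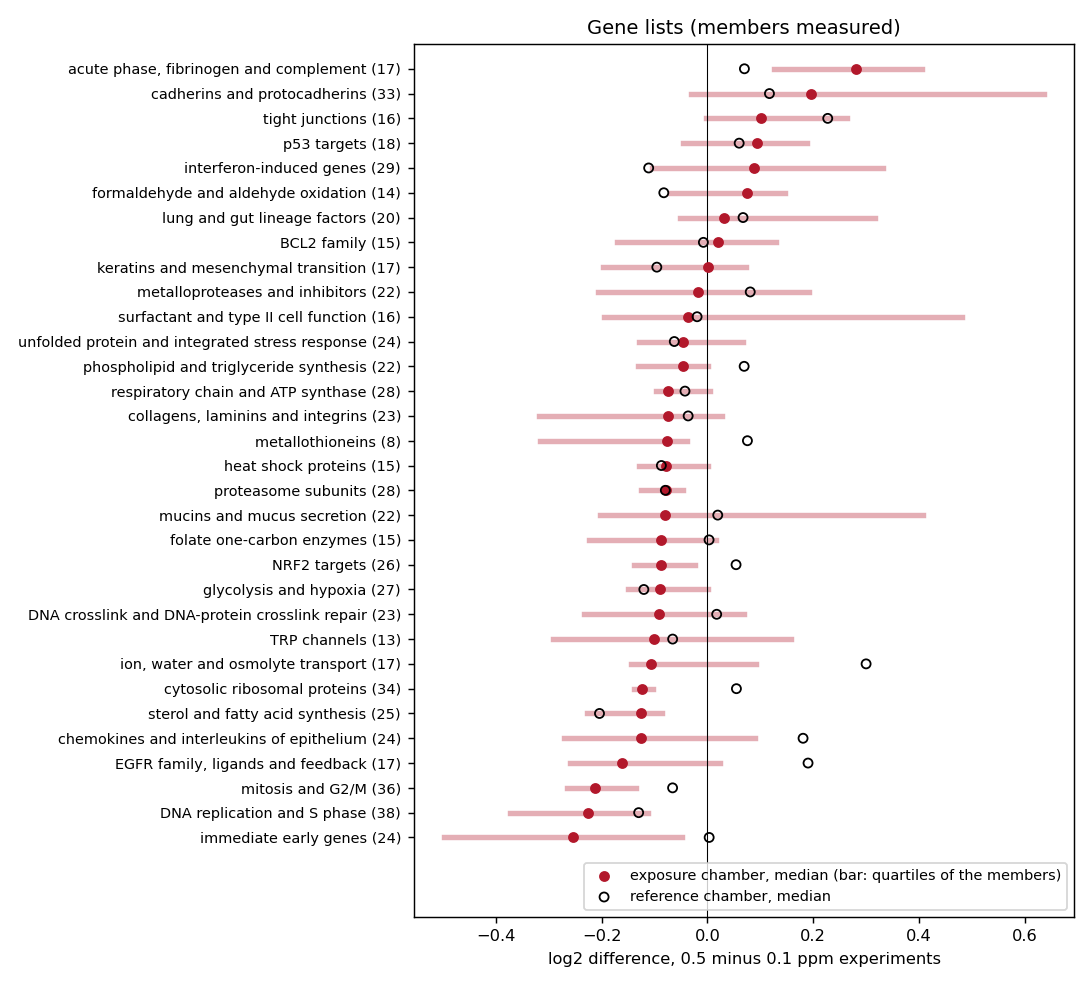
Median log2 difference between the 0.5 and 0.1 ppm experiments (horizontal axis) for 32 gene lists, with the number of members measured in brackets. Filled points are the exposure chamber, with bars from the lower to the upper quartile of the members, and open circles the reference chamber; the filled medians run from -0.25 for immediate early genes to 0.28 for acute phase genes.

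Proliferation, immediate early and acute phase genes had the medians furthest from 0, although 0 of their members passed the threshold. With the trend in eBayes 4 immediate early and 2 acute phase genes passed, and 0 of S phase and mitosis. Of 38 genes of DNA replication and S phase 36 were lower at 0.5 ppm, with a median of -0.23, and of 36 mitosis genes 33 were lower, with a median of -0.21. MKI67, a marker of cycling cells, had signals of 189, 470 and 147 at 0.5 ppm and 393, 441 and 300 at 0.1 ppm, a difference of -0.66 (-1.89 to 0.56). MCM2, of the replicative helicase, had 152, 371 and 147 against 300, 334 and 202, a difference of -0.43 (-1.57 to 0.71). In these genes replicate 2 at 0.5 ppm was as high as the 0.1 ppm arrays. The reference chambers gave medians of -0.13 for S phase and -0.07 for mitosis, in the absence of formaldehyde.

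Of 24 immediate early genes, the first to respond to growth factors and stress, 19 were lower, with a median of -0.25. EGR1, a zinc finger factor, had 1459, 3305 and 1280 against 3238, 5704 and 2906, a difference of -1.04 (-2.24 to 0.16). ATF3, a stress-induced factor, had 320, 617 and 275 against 527, 1500 and 605, a difference of -1.05 (-2.38 to 0.29). DUSP1, a phosphatase that turns off MAP kinases, had 385, 484 and 200 against 519, 899 and 572, a difference of -0.95 (-2.02 to 0.13) with no overlap. In the reference chambers these 3 genes differed by -0.31, -0.44 and 0.36, and the list's median was 0.0033. The reference arrays spread widely in this list, and their levels are given below. Of 17 acute phase, fibrinogen and complement genes 14 were higher, with a median of 0.28. The fibrinogen chain FGB had 10338, 9773 and 12852 at 0.5 ppm and 9153, 4947 and 12384 at 0.1 ppm, a difference of 0.40 (-0.59 to 1.40). CFB, complement factor B, had 2013, 2663 and 2056 against 1857, 746 and 1454, a difference of 0.82 (-0.19 to 1.82) with no overlap.

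In both chambers replicate 2 of the 0.1 ppm experiments was the highest array for S phase, mitosis and immediate early genes and the lowest for acute phase genes. It was not always far from the next. The level of a list in an array was taken as the median over its genes of the log2 signal minus the mean of the 12 arrays. For immediate early genes it was -0.10, 0.35 and -0.38 at 0.5 ppm and 0.21, 0.72 and -0.01 at 0.1 ppm. In the reference chambers it was -0.14, 0.13 and -0.30 in the 0.5 ppm experiments and -0.56, 0.79 and -0.38 in the 0.1 ppm experiments. The -0.56 belongs to replicate 1, the array of low ACTB 5' signal, so the reference median of this list leans on that array. For acute phase genes the exposure array of that experiment was at -0.88 and its reference array at -0.72, against -0.10 to 0.32 over the other five exposure arrays. For S phase the values were 0.48 and 0.41, beside 0.30 in both chambers of 0.5 ppm replicate 2, and for mitosis 0.51 and 0.30, beside 0.21 and 0.26. Without the exposure array of 0.1 ppm replicate 2 the medians were -0.04 for S phase, -0.04 for mitosis, -0.07 for immediate early genes and -0.04 for acute phase genes, with 21 of 38, 20 of 36, 15 of 24 and 9 of 17 genes lower.

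**Figure D5:**
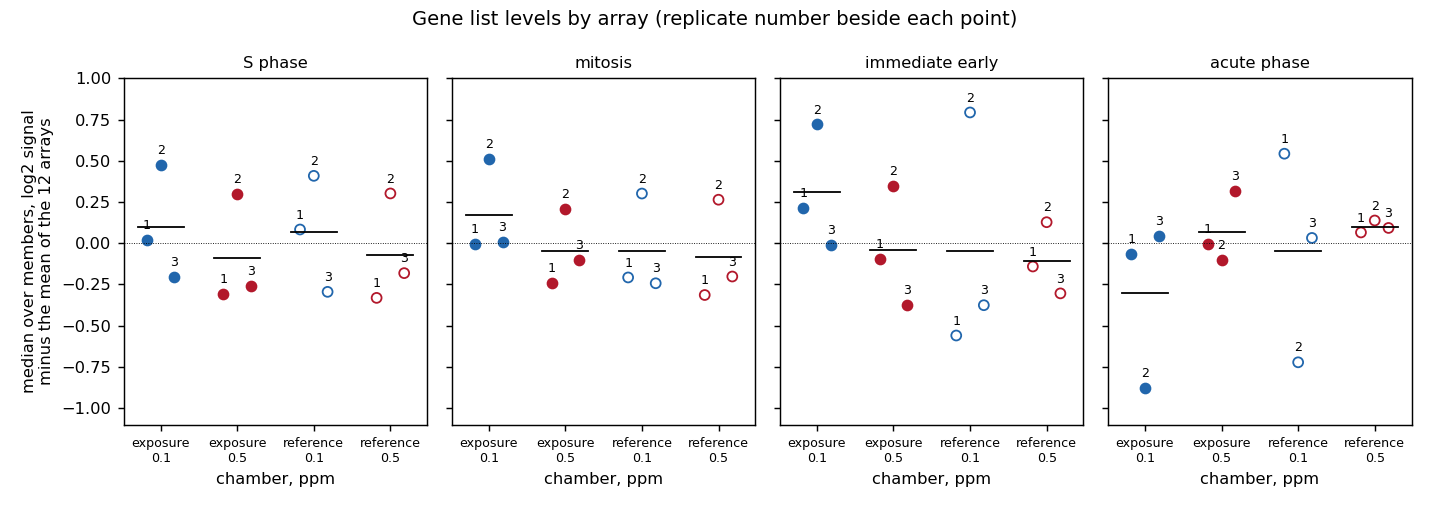
Level of 4 gene lists in each array (vertical axis, median over the members of the log2 signal minus the mean of the 12 arrays) by chamber and concentration of the experiment (horizontal axis). Filled points are exposure and open points reference chambers, numbers give the replicate, and lines are group means; replicate 2 of the 0.1 ppm experiments is highest in the first 3 panels and lowest in the last, in both chambers.

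Some transcripts had differed from both controls, the reference chamber and 0 ppm, at 1 concentration by the rule of the study, in earlier results of these data. Those comparisons share arrays with the present one, and the values are given side by side only. The genes given here are a few picked from many, so the number that passed is not a share of all transcripts chosen by that rule. That share was not counted. GIP, a gut hormone chosen at 0.1 ppm, had 3560, 692 and 1280 at 0.5 ppm, 754, 495 and 993 at 0.1 ppm and 1341, 1751 and 1954 at 0 ppm. The 0.5 ppm arrays spread across the levels of the other groups, and the difference of 1.03 had an interval of -0.61 to 2.67. RXRB, a retinoid X receptor also chosen at 0.1 ppm, had 74.6, 70.8 and 101 against 47.9, 40.5 and 36.3, a difference of 0.97 (0.31 to 1.63). PBX2, described above, was chosen at 0.1 ppm as well and differed by 1.44. SIRT5, a mitochondrial deacylase, differed by 0.98 (-0.12 to 2.09). Of the 4 genes picked here from those chosen at 0.5 ppm, LCE3D and ADAM33 passed the threshold, with the differences of -2.99 and -1.38. Of the others, ABCD3, a peroxisomal transporter, differed by -0.61 (-1.54 to 0.31) and NEXMIF by 0.25 (-0.84 to 1.33). KIF6, a kinesin chosen at both concentrations, had 9.07, 5.40 and 5.75 at 0.5 ppm and 8.09, 7.75 and 10.7 at 0.1 ppm, against 1.18, 1.56 and 1.71 at 0 ppm, a difference of -0.42 (-1.19 to 0.36) at signals below the median probeset. C11orf54, also chosen at both concentrations and also below the median probeset, differed by -0.53 (-1.78 to 0.73).

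Below the median signal the log2 differences were larger and the signals close to the floor. With 32 added before the logarithm the 6 genes named here differed by 1.20-fold to 1.38-fold only, and PEG3, HMGA2 and CORIN did not pass the threshold. DENND2A, an exchange factor for RAB GTPases, had 13.3, 10.9 and 15.8 at 0.5 ppm and 1.68, 0.385 and 0.485 at 0.1 ppm, a log2 difference of 4.28 (2.78 to 5.78). LMOD3, an actin nucleator of muscle, and PEG3, an imprinted zinc finger gene, differed by 4.20 and 4.13. HMGA2, a chromatin protein, had 0.174, 0.0914 and 0.393 against 3.38, 2.58 and 15.8, a difference of -4.81, and its brightest probeset, at a mean log2 signal of 8.98, differed by 0.02. LEF1-AS1, an antisense transcript, and CORIN, a serine protease, differed by -4.49 and -4.16. Without formaldehyde CORIN differed by 2.36 in the opposite direction (standard error 0.79), at signals of 0.39 to 8.33.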

How the data were processed

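RNA of A549 cultures was measured on Affymetrix HG-U133 Plus 2.0 arrays, 1 per culture. The authors processed images with Expression Console and computed MAS5 signals in R/Bioconductor with default settings, and the deposited intensity values are linear, with a 2% trimmed mean of 500 on every array. Here log2 signals, with nothing added, were compared with limma 3.58.1 (lmFit and eBayes, R 4.3.3, two-sided), 3 arrays against 3 without a block, as in the study's methods, with Benjamini-Hochberg adjustment over all 54675 probesets and 95% intervals from the moderated standard errors. The chamber contrast was fitted over 12 arrays as 4 groups, with the experiment as a block as an alternative. Of the probesets, 41097 name 1 gene, 1801 several and 11777 none. A gene in a list was read by its probeset of highest mean signal. Named genes above the median signal were the 14 largest differences in each direction with an unadjusted p under 0.05 and no overlap, leaving out genes known only by a clone or locus name; below it, 3 in each direction. The 6 brightest of each direction were added after their values were seen. Genes, lists and members were chosen with earlier results of these data known. The concentration was taken from the labels. The same replicate number of both chambers was taken to mark the same experiment, which the titles do not state. Deviations of such arrays correlated at 0.46, 0.46 and 0.41 for 0.5 ppm and 0.05, 0.49 and 0.01 for 0.1 ppm. These values do not settle the match for replicates 1 and 3 of 0.1 ppm. Alternatives were quantile normalization, median centring, 32 added before the logarithm, only probesets above the median signal, a trend in eBayes, all 18 arrays in 1 fit, the replicate block, leaving out each array, and, for the lists, all probesets of a gene. The procedure was also run on simulated data whose noise was independent between arrays. Those data held no effect shared within an experiment, so they cannot show how such effects act on the results. The number of arrays limits the precision.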

Additional observations from a re-analysis of the deposited data

How the results depend on the processing

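In the exposure chamber the fit of only the probesets above the median signal called 516, where the fit of all probesets called 170 of the same 27337 and 2087 in all. The count of 2087 stayed within 1.5 times under the other alternatives, with 2134 to 2477 when 1 array was left out and 1571 with 32 added. In the reference chamber the fit of only the probesets above the median signal called 283, where the fit of all called 74 of them. The count of 2009 was 1276 with a trend in eBayes, and 2018 to 2437 with 1 array left out. For the difference of the chamber differences that fit called 266, where the fit of all called 116 of them, and the count of 1710 was 1679 to 2145 with 1 array left out. The share of higher probesets in the exposure chamber ran from 41.0% to 62.4% with 1 array left out, against 51.0%, and the cause was not tested. In the fit of all 18 arrays 1 probeset, of HTR7, passed an adjusted p of 0.05 in limma (lowest adjusted p 0.0181). It differed by -3.32 at a mean log2 signal of 2.36, below the median signal, and was chosen after its values were seen. Without the 0.5 ppm reference array of replicate 1 the chamber contrast had 2, SOX30 and a probeset without a gene name (lowest adjusted p 0.0185 in limma). Both were below the median signal and chosen after their values were seen. The replicate numbers were not used to pair 0.5 with 0.1 ppm arrays, because an experiment had 1 concentration only. Same-numbered arrays correlated at -0.16, 0.28 and 0.45 in their deviations, which by itself does not decide on a pairing. The replicate block gave 2534 probesets in the exposure chamber, 2167 in the reference chamber and 2164 for the chamber contrast, with 0 after adjustment. All 28 named probesets kept their sign under the alternatives run for single probesets (scaling, 32 added, the filter, the trend, all 18 arrays, the replicate block and each array left out), and 9 passed the threshold in all of these: BRSK1, CSF2RA, DHRS9, EXTL3-AS1, FAM238C, GSTM3, PBX2, RASA2 and TRIM52-AS1. Leaving out 1 array kept 17 to 23 of the 28. The median of the acute phase list turned from 0.28 to -0.04 without 0.1 ppm replicate 2, and those of the S phase, mitosis and immediate early lists stayed below 0 with any 1 array left out.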
